A study of Mus musculus with 4 samples.

Results

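Insulin-rich barcodes of cultured mouse islets in vehicle at 11.1 mM glucose are described here by how they differ from cell to cell within 1 single-cell RNA library. They were chosen by hormone RNA: at least 1000 UMIs (unique molecular identifiers, each standing for 1 captured transcript), at least 500 genes and at most 20% mitochondrially encoded UMIs, with Ins1 and Ins2 together at 4% of UMIs or more, Gcg under 2%, and Sst and Ppy each under 1%. Of 8073 barcodes in the library, 7444 passed the quality limits and 5197 (69.8% of those) met the rule. The whole series holds 35707 barcodes, of which 31792 passed the quality limits, in 4 libraries.

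The islets came from wild-type male C57BL6J mice aged 8 weeks and were held for 24 h in culture at 3.9 or 11.1 mM glucose, with 1 mM imeglimin, a glucose-lowering drug, or with DMSO as vehicle. The library described here is vehicle at 11.1 mM glucose. All 4 cultures were dispersed with Accutase, an enzyme mix that frees single cells, and loaded on a 10x droplet instrument that reads the 3' ends of polyadenylated RNA. Each condition is 1 library and how many mice it holds is not given in the sources used here, so cells were not treated as replicates and no test was made. The same rule found 4853 barcodes in the imeglimin library and 4525 in the vehicle library at 3.9 mM glucose, and 5704 in the imeglimin library at 11.1 mM.

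Beta cells are the insulin-secreting cells of the islet. They take up glucose, and its breakdown in glycolysis and the mitochondria raises ATP, closes potassium channels and triggers the release of insulin granules. Mice carry 2 insulin genes, Ins1 and Ins2, and the granules also hold the peptide amylin, encoded by Iapp. Mature beta cells keep a set of transcription factors, among them Nkx6-1, Pdx1 and Mafa, and high insulin synthesis is known to load the endoplasmic reticulum where the hormone is folded.

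The name of the cells was checked against markers that the rule did not use. Iapp stood at 94269 CPM (UMI counts scaled to a common total) in the 5197 barcodes. It stood at 3195 CPM in 552 alpha barcodes of the same library, gated on Gcg, and 55299 CPM in 166 delta barcodes, gated on Sst. Nkx6-1 averaged 4.46 UMIs per barcode and had a UMI in 90.8% of them, at a median depth of 13010 UMIs. Among the alpha barcodes, with a median of 5675 UMIs, 17.9% had a UMI of Nkx6-1. In CPM, Nkx6-1 stood at 297 in the beta barcodes, 178 in the pp gate, 38.9 in the alpha gate and 35.2 in the delta gate. It thus set the beta barcodes less apart from the pp gate than from the other 2. Irx1, a transcription factor gene of alpha cells, and Hhex, the delta cell factor gene, stood at 0.616 and 1.05 CPM, against 143 CPM in the alpha gate and 279 CPM in the delta gate. The median barcode held 6 UMIs over 8 alpha markers, 1 over 6 delta markers, 2 over 5 pp markers, 3 over 6 duct markers and 0 over the endothelial, stromal, macrophage and acinar markers. The alpha, delta and pp sums include Gcg, Sst and Ppy, which the rule limits, and are no check on it. Of 8 lymphoid markers, 6 were at 0. Cd79a had a UMI in 8.02% of beta barcodes, at 7.06 CPM, against 0 to 1.47 CPM in the other gates. Cd79b stood at 0.0128 CPM.

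Insulin RNA was also read in barcodes of other cell types. Ins1 and Ins2 made up 33.9% of UMIs in the beta barcodes, and between 0.289% and 0.479% in the alpha, delta, pp, endothelial, stromal and macrophage gates. These gates hold only barcodes below the insulin limit of the rule, and the beta barcodes only those at or above it. The contrast was thus set by selection, and the gate values do not measure how far insulin RNA spread into other cell types. Gcg had a UMI in 76.3% of beta barcodes and in 52.4% of the 191 endothelial barcodes, at median depths of 13010 and 5736 UMIs. In CPM, Gcg stood at 450 in the beta barcodes, where the rule limits it. It stood between 257 and 6546 CPM in the delta, pp, endothelial, stromal and macrophage gates. The source of these UMIs was not tested. No doublet caller was used here: the hormone limits take out mixtures with other endocrine cells only. Among the members, 91 barcodes held at least 40000 UMIs, and 800 held at least 10 UMIs of the duct markers, which include Krt7 and Spp1, at 202 and 308 CPM in the beta barcodes. Barcode sequences shared with the other 3 libraries numbered 19 to 30, of which 5 to 12 were members. Depth ran from 1028 to 86748 UMIs per barcode, with the 5th percentile at 6319 and the 95th at 29863, and the median barcode showed 3200 genes.

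Insulin RNA filled a large part of each barcode, and the balance between its 2 genes varied more than counting error gives. Pooled over the 5197 barcodes, Ins1 and Ins2 made up 33.9% of UMIs (exact binomial 95% interval 33.938% to 33.959%), and Iapp a further 9.43%. Intervals cover counting error only. Since Ins1 and Ins2 chose the barcodes, these levels are a description. Per barcode, insulin stood at 17.9% of UMIs at the 5th percentile, 32.9% at the median and 47.2% at the 95th, with a lowest value of 4.67% and a highest of 82.0%.

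The threshold at 4% fell where few barcodes lay. Just inside it were barcodes at 4.67%, 4.79% and 5.15% insulin, and just outside it barcodes at 3.84%, 3.74% and 3.64%. Of the barcodes that passed the quality limits, 1591 held under 1% insulin, 85 held 1 to 2%, 24 held 2 to 3%, 13 held 3 to 4% and 11 held 4 to 5%. Of 5731 barcodes with at least 4% insulin, 534 were left out for another hormone, 288 of them for Gcg, 190 for Sst and 171 for Ppy, some for more than 1.

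Ins1, a retroposed copy of the ancestral insulin gene, was the lesser of the pair. Its share of all insulin UMIs was 32.1% when pooled (32.103% to 32.139%), and 18.7%, 33.3% and 40.7% at the 5th percentile, the median and the 95th. Ins1 exceeded Ins2 in 6 of 5197 barcodes. The SD of this share over barcodes was 6.46 percentage points, against 0.827 points that binomial counting alone would give. The share hardly followed depth or total insulin across barcodes (Spearman rho -0.07 with UMIs and 0.04 with the insulin percentage). The amount of Iapp per insulin also varied: it stood at 27.0 UMIs per 100 insulin UMIs in the median barcode, 13.9 at the 5th percentile and 54.8 at the 95th, and the percentages of the hormones in the same total had a rho of 0.02. In the depth-corrected residuals described below, which leave hormones out of the depth, Iapp had r = 0.42 with Ins1 and 0.38 with Ins2. All such coefficients are over 5197 barcodes of 1 library, which share its depth, free RNA and handling, and are given as descriptions.

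**Figure D1:**
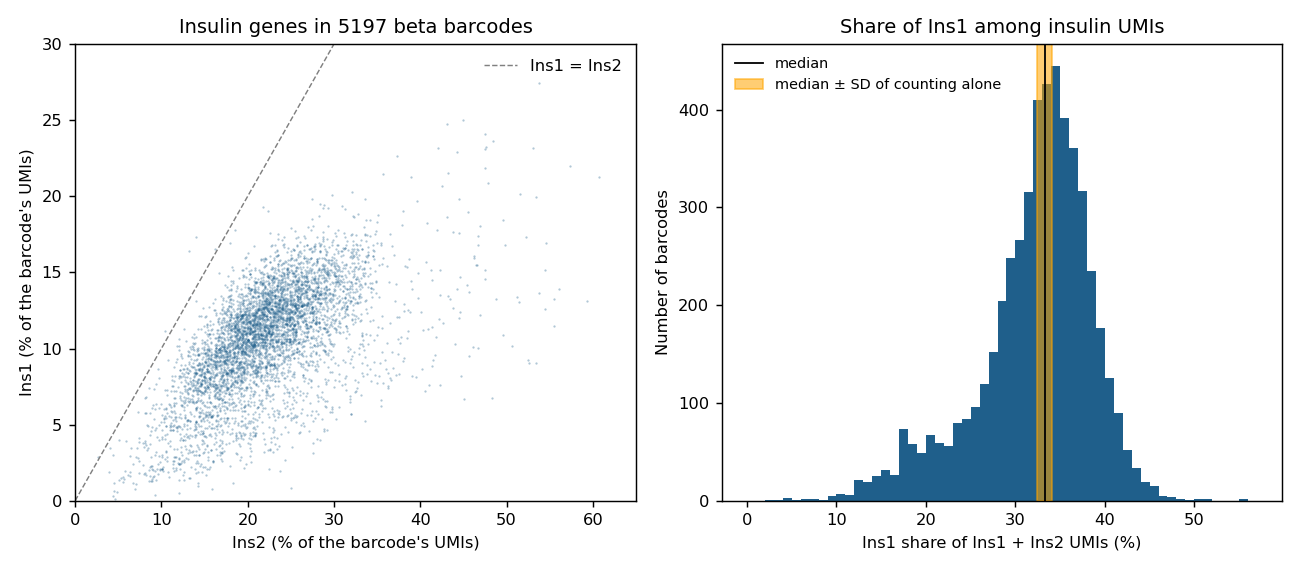
Left, Ins1 against Ins2 as a percentage of UMIs in each of 5197 beta barcodes (points), with the line where both are equal. Right, the number of barcodes by the share of Ins1 among insulin UMIs, with the median (line) and the spread that counting alone gives (band). Nearly every barcode lies below the line of equality, and the shares reach far beyond the band, with a tail towards low Ins1 shares.

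The stretch upstream of Ins1 is shown because both insulin genes are read here in every barcode and the E-box of insulin genes is a known binding site of beta cell factors. The window runs from 250 bases before to 50 after the start of the gene, chr19:52264047-52264346 on the plus strand (RefSeq, GRCm38.p6), with matches to GCCATCTG on either strand in capitals.
Ins1: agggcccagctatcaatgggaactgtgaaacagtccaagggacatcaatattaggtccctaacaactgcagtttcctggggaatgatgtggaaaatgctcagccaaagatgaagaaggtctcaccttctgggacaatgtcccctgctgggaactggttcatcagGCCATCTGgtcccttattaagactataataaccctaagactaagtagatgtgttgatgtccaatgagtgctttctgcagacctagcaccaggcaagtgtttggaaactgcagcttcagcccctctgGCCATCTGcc
The window held 2 matches, at 86 bases before and 41 after the start, and 1.32% of 32851 such windows held at least 1. A match is a description of these letters and not a binding site.

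The genes that went with a high Ins1 share, picked after their values were seen, had several roles. G6pc2, the islet glucose-6-phosphatase, had r = 0.41 with the Ins1 share over the 5197 barcodes. Next came Acly (ATP citrate lyase, 0.39), Chic1 (0.34), Glp1r (the receptor for the incretin GLP-1, 0.33) and Prlr (the prolactin receptor, 0.33). At the other end stood Ddit3, the stress transcription factor CHOP (-0.48), then Btf3 (-0.45), the translation start factor gene Eif1 (-0.44) and the ribosomal protein genes Rps15a and Rpl9 (-0.39 and -0.37).

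Beyond the hormones, the most abundant RNA was Malat1. The 3 hormone genes held 43.4% of UMIs, the top 20 genes 49.4% and the top 100 genes 57.0%. After Ins2, Ins1 and Iapp came Malat1, a nuclear RNA, at 11238 CPM and the mitochondrially encoded mt-Co1 and mt-Co3 at 5364 and 5259. Chga, the granule protein chromogranin A, stood at 4467 CPM. Mt-Atp6, the ferritin light chain gene Ftl1, mt-Co2, the translation-associated gene Tpt1 and mt-Cytb followed, at 4008, 3936, 3766, 3615 and 2437 CPM. Eef1a1, a translation elongation factor, stood at 2431, the metallothionein gene Mt1 at 2238, Rpl41 at 2126 and Pcsk2, a proinsulin-processing enzyme, at 2091. The last of the 20 were mt-Nd4 at 1940, the ubiquitin gene Ubb at 1854, Eif1 at 1676 and the granule protein gene Scg2 at 1637. Cytosolic ribosomal protein genes, 83 in number, made up 5.99% of UMIs and mitochondrially encoded genes 2.57%. As 3' counts these levels are per transcript end and were not divided by gene length.

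Genes of similar abundance differed widely in how evenly they were spread over cells. Variation beyond counting noise was measured as the dispersion φ in variance = μ + φμ², where μ is the level expected at the depth of a barcode outside hormone and mitochondrial genes. Its square root, the extra coefficient of variation, was 22.2% for Eef1a1, 25.2% for Tpt1, 29.1% for Scg2, 34.8% for Iapp, 41.9% for Ins1 and 41.2% for Ins2. It was 68.5% for Ftl1, 77.1% for Ubb and 133% for Mt1. Mt1 was thus the least evenly spread of the 20 most abundant genes: its 5th percentile, median and 95th percentile were 1, 13 and 140 UMIs per barcode, and its highest value 884.

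Of 8569 genes with a mean of at least 0.1 UMIs per barcode, 1010 (11.8%) had a dispersion at least 3 times the median of the genes nearest in mean. The count was 558 when barcodes were thinned to 5000 UMIs, without 126 shallower ones, and 1633 with genes down to a mean of 0.02. The ratio to genes of like mean is used below. Its leaders, leaving out genes over 10 times higher in another cell gate, included secreted and stress proteins that few cells held. Lcn2, the iron-binding protein lipocalin 2, led at a ratio of 1065. It had a UMI in 3.19% of barcodes and reached 227 UMIs in 1 of them, and the richest 52 barcodes held 87.2% of its UMIs.

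Several of these leaders are proteins of the secretory or stress repertoire. Sprr1a, a small proline-rich protein, had a ratio of 425, Cartpt, the neuropeptide CART, 200, and Spp1, the secreted phosphoprotein osteopontin, 161. Snhg15, a snoRNA host gene, had 145, Star, which carries cholesterol into mitochondria, 121, Hmox1, haem oxygenase, 97.8, and Crybb3, a crystallin, 95.8. Pdyn, the opioid precursor prodynorphin, had 43.5 and Nupr1, a stress-induced chromatin protein, 42.7. These genes differ in how many barcodes hold them. Spp1 had a UMI in 30.5% of barcodes with a 95th percentile of 24 UMIs and a highest value of 774, Crybb3 in 37.5% with 9 and 186, Pdyn in 36.1% with 11 and 65, and Nupr1 in 53.4% with 21 and 253. The rest of the 25 were Hspa1b, Hspa1a, Dnajb1 and Hsph1 (heat shock), Stmn1 and Hmgb2 (dividing cells), Snhg11, Cfb, Egr1, Nptx2, Ppp1r15a, Mt3, Gm27168, Msln and Gstp1, with ratios between 43.5 and 983.

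**Figure D2:**
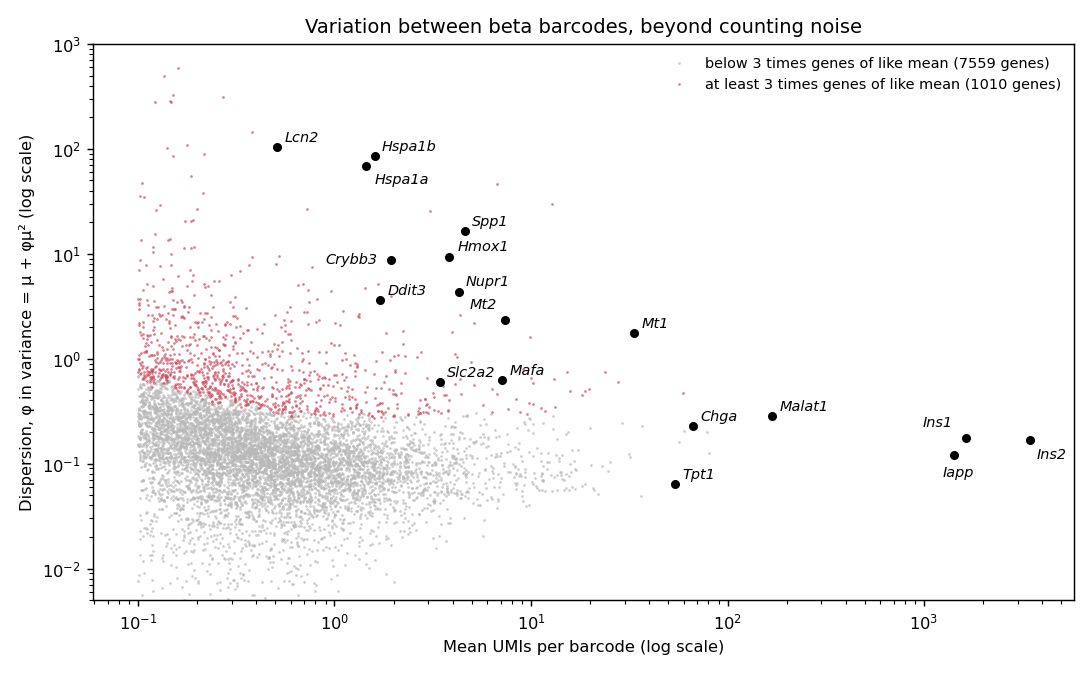
Dispersion of 8569 genes (points) against their mean UMIs per barcode over 5197 beta barcodes, both on log axes, with 603 genes at or below 0.005 not drawn. Red points are the 1010 genes at 3 times or more the dispersion of genes of like mean. The insulin genes and Tpt1 lie near the level of abundant genes, Mt1 and Mt2 above it, and Lcn2, Hspa1a and Hspa1b at the top.

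Few barcodes held most UMIs of some of these genes. The sets below were drawn after values were seen. Barcodes with at least 5 Lcn2 UMIs numbered 79 (1.52%) and held 94.5% of Lcn2 UMIs, at a median of 15807 UMIs and 25.1% insulin. Barcodes with at least 20 Hmox1 UMIs numbered 273 (5.25%) and held 68.2%, at 17190 UMIs and 27.6% insulin. Barcodes with at least 20 Spp1 UMIs numbered 323 and held 75.6% of Spp1 UMIs, at 16807 UMIs and 32.4% insulin. All 3 sets were deeper than the median member. The Spp1 set averaged 4.05 UMIs of the other duct markers, against 2.99 in the remaining members, and 1.92 UMIs of acinar markers, against 0.894. The Hmox1 set averaged 3.52 UMIs of macrophage markers, against 0.999, and the Lcn2 set 25.7 UMIs of duct markers, against 7.39. Their part in these sets was not tested.

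Gene pairs were compared by Pearson's r of depth-corrected residuals over the 5197 barcodes. Of 12572605 pairs among 5015 genes with a mean of at least 0.3 UMIs, 12536 (0.0997%) had r of at least 0.2 and 3324 (0.0264%) had r of at most -0.2. The median over all pairs was 0.0016, and 991 genes took part in at least 1 pair at 0.2 or above. The count at 0.2 or above was 22386 with all UMIs as the measure of depth and 1930 after thinning to 5000 UMIs. Outside the mitochondrially encoded and ribosomal genes, the strongest pairs fell into 4 kinds. The metallothionein genes Mt1 and Mt2 had r = 0.90. The heat shock genes Hspa1a and Hspa1b had 0.90, and Hsp90aa1 and Hsp90ab1, the cytosolic HSP90 chaperones, had 0.84. Ins1 and Ins2 had 0.84. Gapdh, a glycolytic enzyme, and Mif, a cytokine gene on the hypoxia list, had 0.81, followed by Aldoa with Mif (0.77), Gapdh with Aldoa (0.75) and Bnip3 with Pgam1 (0.75).

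These pairs were read in the other libraries under the same rule. Of the 20 strongest, 20 had r of at least 0.2 with imeglimin at 11.1 mM glucose, 19 with vehicle at 3.9 mM and 8 with imeglimin at 3.9 mM. Their median was 0.76 here, against 0.71, 0.69 and 0.19 in those libraries. Gapdh and Mif had 0.81 here, against 0.78 with imeglimin at 11.1 mM, 0.75 with vehicle at 3.9 mM and 0.10 with imeglimin at 3.9 mM. Hsph1 and Hspa1b had 0.81 here, against 0.28, 0.25 and 0.23 in the same order. The pairs were chosen as the highest here, so their lower values in other libraries are a description. Median depth was 13010 UMIs here, against 12756, 12270 and 9552 in the same order, and its part was not tested. With 1 library per condition, such differences have no replicate check.

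Glycolysis and hypoxia genes varied together over the cells, and the hypoxia list had the widest range of the lists summed, apart from interferon, whose 5th percentile was 0. Hypoxia targets are genes that the factor HIF switches on when oxygen is short, among them most enzymes of glycolysis. On the hypoxia list, 14 of 16 measured members were among the dispersed genes, and on the glycolysis list 13 of 18, beside 11.8% of all genes. The median r over pairs was 0.28 within the hypoxia list, 0.30 within the glycolysis list and 0.28 between them, beside 0.0016 over all pairs. Within the hypoxia list, Bnip3, a mitophagy receptor, had a median r of 0.45 with the rest, Ero1l, an oxidase of disulfide formation, 0.43, and Egln1, the oxygen-sensing prolyl hydroxylase, 0.42. Pgk1, Pgam1, Gapdh and Aldoa led the glycolysis list at 0.56, 0.54, 0.54 and 0.54. Among the exceptions were Slc2a2, the GLUT2 glucose transporter of beta cells, and Gpd2, with -0.28 and -0.14.

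Ldha, lactate dehydrogenase, which beta cells are known to keep low, belonged to the same gradient. It averaged 0.503 UMIs per barcode and had a UMI in 15.6% of barcodes, and its level was 42.4 times higher in another cell gate. When the barcodes were ranked by the summed hypoxia list and cut into 5 ranges of 1039 or 1040, Ldha had 8, 29, 281, 694 and 1601 UMIs in all, from the lowest range to the highest. The 5 ranges are steps of a continuous sum chosen after values were seen and not cell types. Their median depths were 12149, 13209, 14069, 13764 and 12486 UMIs.

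Other genes followed the ranking to different extents. In UMIs per 10000 outside hormone and mitochondrial genes, Gapdh stood at 8.57, 10.99, 18.7, 29.7 and 46.0 from the lowest range to the highest, and Pgk1 at 1.62, 2.45, 6.43, 12.2 and 15.0. The metallothionein genes, which bind zinc and copper and were on neither list, were concentrated in the highest range: Mt1 stood at 15.0, 16.4, 22.3, 39.0 and 111, and Mt2 at 2.61, 2.75, 4.10, 7.87 and 27.6. Ddit3 was nearly level over the lower 4 ranges, at 0.959, 1.08, 1.25 and 1.39, and stood at 5.76 in the highest. The elongation factor gene Eef1a1 was about level, at 46.0, 45.7, 44.5, 42.4 and 47.4. Mt1, Mt2, Ddit3, Gapdh and Pgk1 each rose at every step. The last step took Mt1 from 39.0 to 111, Mt2 from 7.87 to 27.6 and Ddit3 from 1.39 to 5.76. It took Gapdh from 29.7 to 46.0 and Pgk1 from 12.2 to 15.0.

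Across single barcodes, the summed hypoxia list ran at 0.0698%, 0.278% and 1.20% of non-hormone, non-mitochondrial UMIs at the 5th percentile, the median and the 95th, a range of 17.3 times. It went with the glycolysis list at a Spearman rho of 0.87. Its rho was 0.07 with depth, -0.004 with the Malat1 percentage, -0.19 with the insulin percentage and -0.29 with the mitochondrial percentage, whose part in the pattern was not tested. Mt1 had its highest correlations, after Mt2, with the hypoxia genes Egln1 (0.61), Bnip3 (0.61), Fam162a (0.60) and Ero1l (0.58), and its lowest with Prlr (-0.40), Pcsk2 (-0.39), Ero1lb (-0.37), Chic1 (-0.35) and mt-Nd1 (-0.35).

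The windows before the starts of Mt1, Mt2 and Bnip3 are shown because these genes shared the gradient and known motifs of metal and hypoxia response can be looked for in them. Each runs from 250 bases before to 50 after the start (RefSeq, GRCm38.p6): Mt1 at chr8:94178839-94179138 and Mt2 at chr8:94172368-94172667 on the plus strand, and Bnip3 at chr7:138909457-138909756 on the minus strand. Capitals mark, in Mt1 and Mt2, matches to the metal response core TGCACNC or TGCGCNC, and in Bnip3 matches to the hypoxia response core ACGTG or GCGTG, on either strand. In Bnip3 matches on the opposite strands overlap.
Mt1: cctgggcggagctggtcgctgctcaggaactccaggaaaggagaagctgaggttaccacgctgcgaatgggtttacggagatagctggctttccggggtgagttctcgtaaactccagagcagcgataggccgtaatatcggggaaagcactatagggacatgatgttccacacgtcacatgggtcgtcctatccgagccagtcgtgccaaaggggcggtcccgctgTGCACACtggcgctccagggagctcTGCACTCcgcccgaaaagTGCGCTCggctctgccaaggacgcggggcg
Mt2: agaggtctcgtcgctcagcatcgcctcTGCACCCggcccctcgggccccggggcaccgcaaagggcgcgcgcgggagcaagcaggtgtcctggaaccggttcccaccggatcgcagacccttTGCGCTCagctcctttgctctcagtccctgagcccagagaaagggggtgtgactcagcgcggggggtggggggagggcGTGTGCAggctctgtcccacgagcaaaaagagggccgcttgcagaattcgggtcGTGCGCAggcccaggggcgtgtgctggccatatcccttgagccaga
Bnip3: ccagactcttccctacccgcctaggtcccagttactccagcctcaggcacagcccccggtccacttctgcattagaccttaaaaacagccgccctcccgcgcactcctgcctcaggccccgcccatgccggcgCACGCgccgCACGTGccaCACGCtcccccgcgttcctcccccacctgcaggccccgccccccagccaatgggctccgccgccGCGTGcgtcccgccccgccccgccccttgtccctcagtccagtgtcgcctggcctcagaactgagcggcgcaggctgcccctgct
The Mt1 window held 3 metal matches and the Mt2 window 4, and 25.7% of all 32851 windows held at least 1 and 1.97% at least 3. The Bnip3 window held 5 hypoxia matches, and 43.8% of windows held at least 1.

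**Figure D3:**
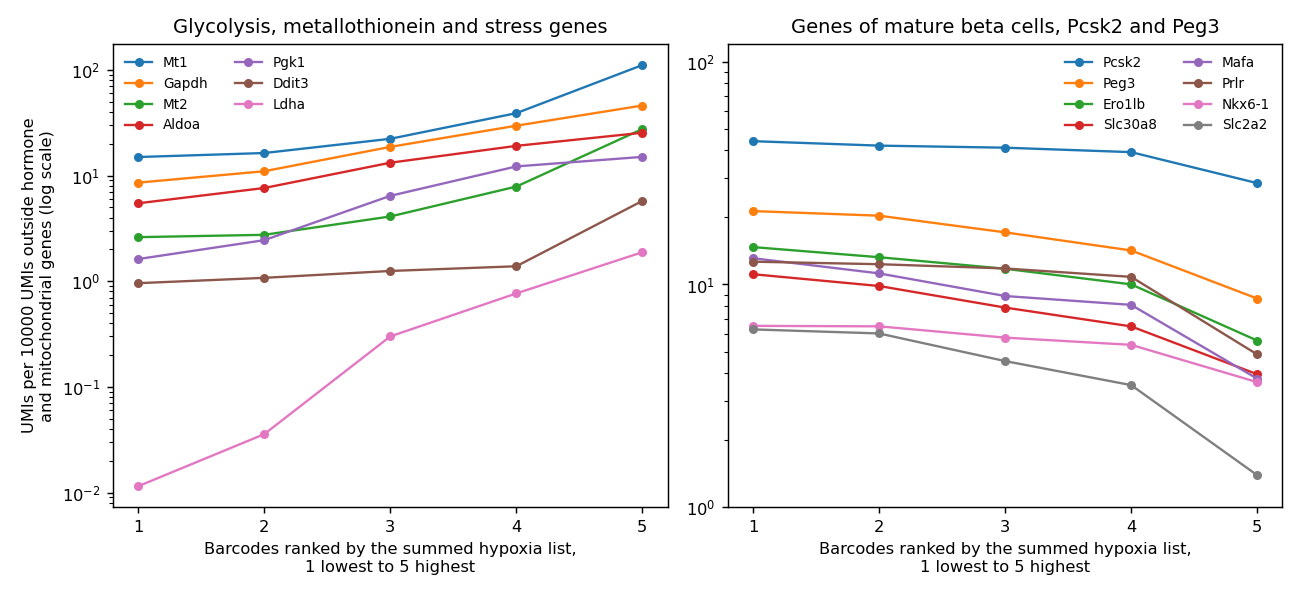
Pooled levels of named genes (log scale, UMIs per 10000 UMIs outside hormone and mitochondrial genes) in 5 ranges of beta barcodes ranked by the summed hypoxia list, lowest to highest. Left, Gapdh, Aldoa, Pgk1 and Ldha climb over all ranges while Mt1, Mt2 and Ddit3 climb mostly at the last; right, Slc2a2, Mafa, Ero1lb, Slc30a8 and Prlr are lowest in the last range.

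Genes of mature beta cells ran the other way. On the identity list 28 of 32 members were measured, 14 of them dispersed, beside 11.8% of all genes. Rbp4, also a delta marker here, was among the 14, with a dispersion ratio of 253. Its level was 114 times higher in another gate, and its median r with the rest of the list was -0.04. The median r between members of the list was 0.08, with 68 of 378 pairs (18.0%) at 0.2 or above, beside 0.0997% of all pairs. Mafa, the insulin gene activator of mature beta cells, went with Ero1lb, the oxidase of insulin folding (0.53), Slc2a2 (0.48), Ttc28 (0.41), mt-Cytb (0.39) and Prlr (0.39). Its lowest values were with Pgam1 (-0.32), Mif (-0.32), Bnip3 (-0.31), Aldoa (-0.31) and Gapdh (-0.30). Nkx6-1 went with Slc2a2 (0.36), Mafa (0.32), Ero1lb (0.31), Prlr (0.31) and Chic1 (0.30), and its lowest were Pgam1, Mif, Gapdh, P4ha1 and Bnip3, between -0.25 and -0.26. Slc2a2 itself had r = 0.50 with Slc30a8 and 0.49 with Ero1lb, and it lay opposite to the glycolytic enzymes as Mafa did.

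Along the 5 ranges of the hypoxia list, Mafa stood at 13.1, 11.2, 8.87, 8.10 and 3.78 UMIs per 10000 from the lowest range to the highest, and Slc2a2 at 6.28, 6.03, 4.53, 3.53 and 1.39. Slc30a8, the zinc transporter of insulin granules, stood at 11.1, 9.84, 7.88, 6.48 and 3.95. Pdx1, Glp1r and Ucn3, a peptide gene of mature beta cells, were likewise lower in the highest range than in the lowest, at 0.469, 0.464 and 0.464 times. Of 28 identity genes, 26 were lower in the highest range, a count with no share over all genes beside it. The exceptions were Syt4, a synaptotagmin (1.36 times), and Gipr, the receptor for the incretin GIP (1.24 times). Trpm5, a cation channel gene, Abcc8, which encodes the sulfonylurea receptor, and Pax6, an islet transcription factor, stood at 0.875, 0.828 and 0.817 times. Insulin made up 36.3% of UMIs in the lowest range and 31.5% in the highest (0.87 times). The Ins1 share of insulin UMIs was 33.4%, 32.9%, 32.5%, 33.1% and 28.3% from the lowest range to the highest.

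Over barcodes, the identity sum had a Spearman rho of -0.51 with the hypoxia sum, -0.45 with the glycolysis sum and -0.43 with Mt1 and Mt2. Its rho with the mitochondrial percentage was 0.44 and with depth -0.04. The part of the mitochondrial percentage in this pattern was not tested. The lowest correlations of all 12572605 pairs, again picked after values were seen, joined the same sides: Peg3, an imprinted zinc finger gene, with Mif (-0.44), Gapdh (-0.44) and Aldoa (-0.42), and Slc30a8 with Gapdh (-0.41) and Mif (-0.40). Of the 20 lowest pairs here, 12 had r of at most -0.2 with imeglimin at 11.1 mM, 5 with vehicle at 3.9 mM and 0 with imeglimin at 3.9 mM. The numbers of these pairs with r below 0 were 20, 20 and 17, respectively. They were picked as the extreme of this library, so weaker values elsewhere are a description. No share over all pairs of those libraries stands beside these counts.

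Stress genes of the integrated stress response, which lowers protein synthesis and turns on ATF4 targets, were unevenly spread. Of 34 measured members 19 were dispersed, beside 11.8% of all genes. The median r between members was 0.08, and 34 of 378 pairs (8.99%) had r of at least 0.2, beside 0.0997% of all pairs. Ddit3 averaged 1.71 UMIs and had a UMI in 46.4% of barcodes, with a 95th percentile of 9 and a highest value of 53, and its dispersion ratio was 40.1. Nupr1, on the same list, reached 253 UMIs. Trib3, a pseudokinase target of CHOP, had a ratio of 16.1 and r = 0.36 with Ddit3, Chac1, which degrades glutathione, 11.7, and Ppp1r15a, which restores translation, 50.9. Ddit3 had its highest correlations with Mt2 (0.52), Ero1l (0.48), Eif1 (0.47), Btf3 (0.46) and the mitochondrial chaperone gene Hspa9 (0.45). Its lowest were with G6pc2 (-0.37), mt-Nd1 (-0.34), Pcsk2 (-0.34), Acly (-0.32) and Chic1 (-0.31).

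Chaperones of the endoplasmic reticulum were more even. On the unfolded protein response list 6 of 30 measured members were dispersed, beside 11.8% of all genes, and 103 of 435 pairs (23.7%) had r of at least 0.2, beside 0.0997% of all pairs. The median r was 0.08, and 0.049 after thinning to 5000 UMIs. Sdf2l1, Pdia6, Manf and Calr, all proteins of the reticulum, had the highest median r with the rest of the list, at 0.24, 0.23, 0.23 and 0.22. Hspa5, the chaperone BiP, had a 5th percentile, median and 95th percentile of 2, 12 and 36 UMIs, and 1 barcode reached 629. Ero1l and Ero1lb, which encode related oxidases, fell on opposite sides: Ero1l went with the hypoxia genes, with a median r of -0.06 to the unfolded protein response list, and Ero1lb with Mafa. The hormone genes went with genes of protein entry into the reticulum and of the granule: Iapp had r = 0.44 with Sec61b, 0.42 with Ins1, 0.42 with the respiratory chain gene Ndufa4, 0.38 with Ins2 and 0.38 with Ssr4. Ins2, beside 0.84 with Ins1 and 0.38 with Iapp, had 0.46 with the granule chaperone gene Scg5 and 0.44 with Pcsk1n and Ssr4. The lowest partners of Iapp were Malat1 (-0.35), Mt2 (-0.25), Hspa9 (-0.24), Ero1l (-0.22) and P4ha1 (-0.22). For Ins2 the lowest, Pgk1, Dst, Cltc, Ddx17 and Igf1r, lay between -0.16 and -0.18.

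Heat shock genes, targets of the factor HSF1 that refold damaged proteins, were held in large part by few barcodes. Hspa1a and Hspa1b, the inducible HSP70 genes, had a UMI in 7.83% and 6.77% of barcodes, and their highest values were 404 and 605 UMIs. They are near-identical neighbours, so the split of reads between them is uncertain and they were summed to draw the set below. Correlations and dispersion ratios given for each of them apart carry that uncertainty. Together 103 barcodes (1.98%) with at least 10 UMIs of the pair held 94.3% of their UMIs, and 4620 barcodes had 0. In the alpha, endothelial and macrophage gates 0.543%, 0.524% and 0.752% of barcodes had at least 10, at median depths of 5675, 5736 and 4913 UMIs. The 103 barcodes were drawn after values were seen.

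The windows around the starts of the pair are shown for their near identity. They are not the 3' ends that the library reads, and do not show whether those reads can be split. They run from 250 bases before to 50 after the start (RefSeq, GRCm38.p6), Hspa1a at chr17:34972107-34972406 and Hspa1b at chr17:34959189-34959488, both on the minus strand, with the heat shock element core GAANNTTC in capitals.
Hspa1a: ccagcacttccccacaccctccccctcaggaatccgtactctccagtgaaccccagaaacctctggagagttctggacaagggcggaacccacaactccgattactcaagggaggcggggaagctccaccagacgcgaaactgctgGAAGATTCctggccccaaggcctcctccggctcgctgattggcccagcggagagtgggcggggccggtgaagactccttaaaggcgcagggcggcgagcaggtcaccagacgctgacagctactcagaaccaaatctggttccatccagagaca
Hspa1b: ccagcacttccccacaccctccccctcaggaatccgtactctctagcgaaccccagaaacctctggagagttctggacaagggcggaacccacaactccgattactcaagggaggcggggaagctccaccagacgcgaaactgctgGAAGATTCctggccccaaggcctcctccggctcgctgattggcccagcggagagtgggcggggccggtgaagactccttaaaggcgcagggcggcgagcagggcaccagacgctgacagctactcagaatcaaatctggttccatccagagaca
The windows differed at 4 of 300 bases (98.67% identical) and each held 1 match, at 104 bases before the start, and 7.86% of all windows held at least 1.

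The 103 barcodes were rich in other heat shock genes, Cryab being an exception at 0.0318 UMIs per 10000 against 0.0675 in the other members, and poor in several beta cell genes. In UMIs per 10000, Hsp90aa1 stood at 89.3 in the 103 barcodes and 10.5 in the other 5094, Hsph1, a co-chaperone, at 26.6 and 1.51, Dnajb1, an HSP40, at 10.4 and 0.420, and Ubb at 145.3 and 31.8. The stress genes Ppp1r15a and Hmox1 stood at 8.48 and 0.685 and at 40.9 and 3.88. Ddit3 stood at 9.83 and 1.93. Of the mature beta cell genes, Mafa stood at 2.15 in the 103 barcodes and 8.99 in the others, and Slc2a2 at 0.762 and 4.34. Gapdh was level, at 23.4 in both sets, and Bnip3 stood at 5.71 and 6.12. The Ins1 share was 21.5% in the median heat shock barcode and 33.4% in the others, while insulin made up 34.97% and 32.9% of UMIs. Median depth was 13407 and 13001 UMIs, genes per barcode 2597 and 3205, and mitochondrial UMIs 1.42% and 2.55%. Their part in these differences was not tested.

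The heat shock list had the highest median r of the nuclear lists, 0.50, with 87 of 91 pairs at 0.2 or above, beside 0.0997% of all pairs, and 14 of 15 measured members dispersed, beside 11.8% of all genes. Hspb1, with a ratio of 1140 and an RNA level 13.2 times higher in another gate, was among them. Without the 103 barcodes, an alternative added after the data were seen, the list's median r was 0.18, the dispersion ratios of Hspa1a, Dnajb1 and Hsph1 were 51.9, 12.4 and 7.77, the r of Hsp90aa1 and Hsp90ab1 was 0.66, and Hspa1b was too rare to be measured.

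**Figure D4:**
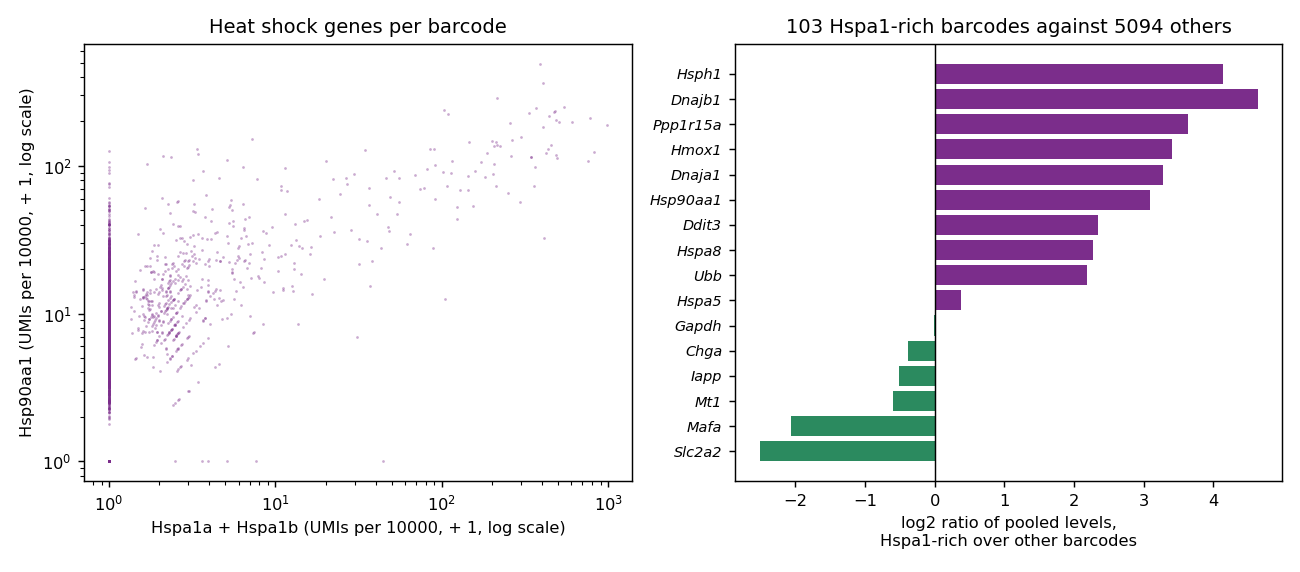
Left, Hsp90aa1 against the sum of Hspa1a and Hspa1b in each of 5197 beta barcodes (UMIs per 10000 outside hormone and mitochondrial genes, plus 1, log scales). Right, log2 ratio of the pooled level in 103 barcodes with at least 10 UMIs of the Hspa1 pair over the other 5094, where heat shock and stress genes lie above 0, Gapdh at 0, and Iapp, Mt1, Mafa and Slc2a2 below it.

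The other lists differed in how tightly their members moved together. Counts of dispersed members below stand beside 11.8% of all genes. Of 22 lists, 18 had at least 4 measured members, and 15 of these had a median r of at least 0.05 between members. Mitochondrially encoded genes were the tightest at 0.66, with 55 of 55 pairs at 0.2 or above, yet only 1 of 13, mt-Nd6, was dispersed. Its RNA lies on the opposite strand to most mitochondrial genes. The oxidative phosphorylation subunits encoded in the nucleus, 70 genes, showed a median r of 0.09 and 1 dispersed member, and were the most even of the lists with a median dispersion ratio of 0.842. Cholesterol synthesis genes had 0.14, with Hmgcs1 (0.25), Insig1 (0.23) and Idi1 (0.21) among the highest, and 9 of 17 were dispersed. MHC class I genes had 0.13, led by H2-D1 (0.21), and NRF2 targets of the oxidant response 0.12, led by Gclm (0.23), Hmox1 (0.22) and Srxn1 (0.21), with 13 of 17 dispersed. Nuclear RNAs had 0.18, led by Malat1 (0.30) and Meg3 (0.27). Under the alternatives the median r ran from 0.087 to 0.22 for nuclear RNAs, 0.088 to 0.25 for MHC class I, 0.072 to 0.18 for NRF2 targets, 0.084 to 0.16 for cholesterol synthesis and 0.038 to 0.11 for oxidative phosphorylation.

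Granule and exocytosis genes had a median r of 0.04 (0.025 to 0.063 under the alternatives), with 28 of 351 pairs (7.98%) at 0.2 or above, beside 0.0997% of all pairs. Of 27 measured, 5 were dispersed, beside 11.8% of all genes, with Vgf, a granule peptide precursor, at a ratio of 17.1 and Chgb at 4.99, while Scg2, Cpe and Scg5 were more even than genes of like mean at 0.817, 0.553 and 0.781. Lipogenesis genes had 0.04, with Txnip, a glucose-induced gene, at a ratio of 40.1, a UMI in 37.2% of barcodes and a highest value of 58. Genes described elsewhere as marking subsets of beta cells, the heterogeneity list, had a median r of -0.02 over 6 measured members. Of its 10 members tested for dispersion 8 were dispersed, beside 11.8% of all genes. Ttr, Rbp4, Cd81 and Etv1 among these 8 were over 10 times higher in another gate. Those not so high elsewhere included Th, St8sia1 and Ppp1r1a, at ratios of 12.9, 4.11 and 4.46.

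Interferon and cell cycle genes were seen in few barcodes. Of 15 interferon genes measured 14 were dispersed, beside 11.8% of all genes, with Ifit3 at a ratio of 494 and Rsad2 at 167. Both were over 10 times higher in another gate. Barcodes with at least 5 UMIs of Ifit1, Ifit3 and Rsad2 numbered 74 (1.42%), against 7.33% of the endothelial and 12.8% of the macrophage gate. They averaged 4.30 UMIs of endothelial markers, against 0.328 in the other members, 3.32 of macrophage markers, against 1.10, and 16.6 of duct markers, against 7.54, whose part was not tested. Barcodes with at least 3 UMIs of Mki67 and Top2a, genes of dividing cells, numbered 28 (0.539%) and held 85.5% of those UMIs. No barcode of the alpha, endothelial or macrophage gates reached that level, at lower median depths of 5675, 5736 and 4913 UMIs. The proliferation list had a median r of 0.28 over 4 measured genes, Hmgb2, Tubb5, H2afz and Pcna, and 0.086 on a log2 scale. The dispersion ratio of Hmgb2 was 56.9, and 14.5 when barcodes with markers of other cells and the deepest were left out. Stmn1, too rare for a correlation, had a dispersion ratio of 551. P53 targets had 0.09, led by Cdkn1a (0.25), and immediate early genes, which answer acute stimuli, had 0.07, led by Egr1 (0.21). Both were below 0.05 with genes down to a mean of 0.1. Metallothionein, NF-κB and disallowed genes had too few measured members for a median r. Of those tested 5 of 6, 5 of 6 and 1 of 1 were dispersed, beside 11.8% of all genes, among them Mt3 at 45.2 and Nfkbia at 47.5.

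**Figure D5:**
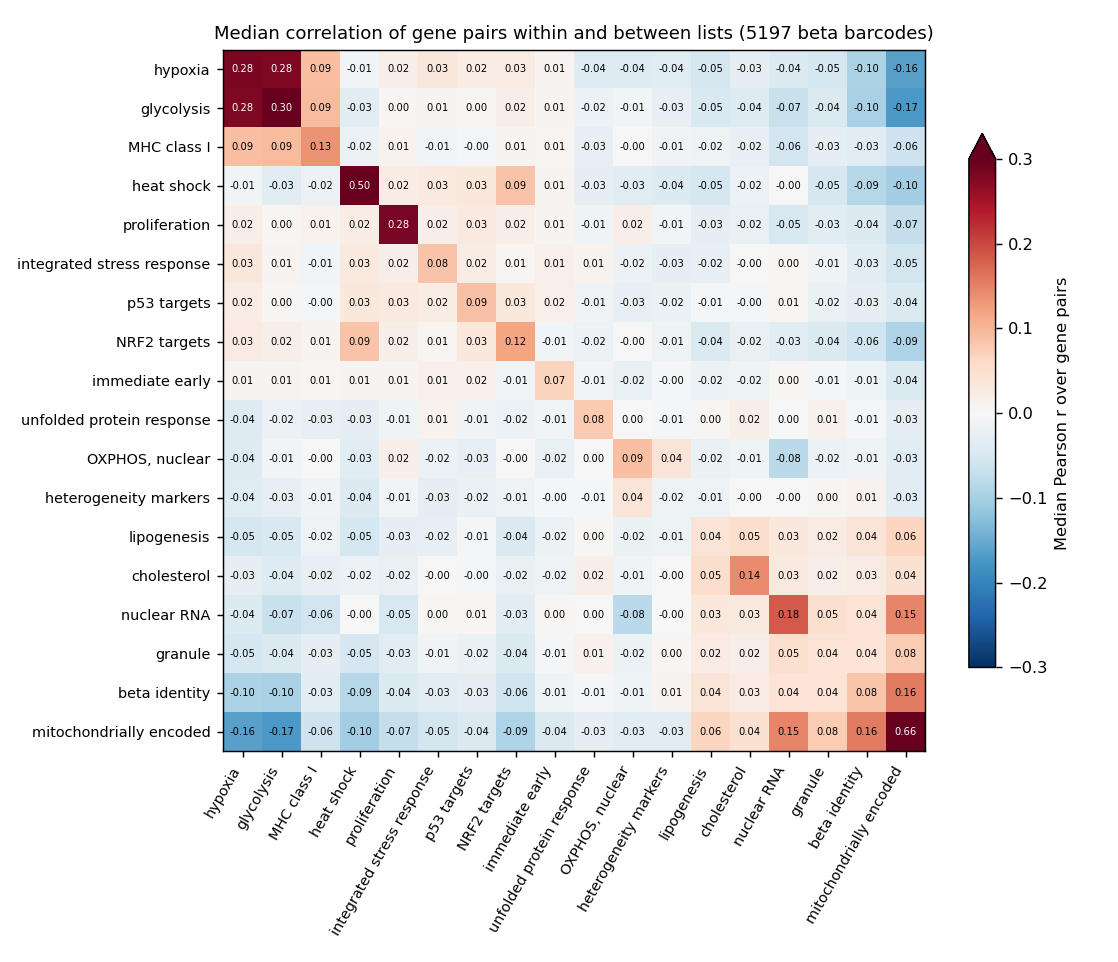
Median Pearson r over gene pairs within lists (diagonal) and between lists for the 18 lists with at least 4 measured genes, over 5197 beta barcodes; the colour scale stops at 0.3 and the printed value is exact to 2 decimals. Hypoxia and glycolysis share a block at 0.28, identity lies at -0.10 with both, and mitochondrially encoded genes lie at 0.16 with identity and -0.16 with hypoxia.

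Depth and mitochondrial content went with named genes too. The depth of a barcode had its highest correlations with Iapp (0.35), Sec61b (0.31), Ndufa4 (0.29), Atp5g1 (0.29) and Nme2 (0.28), and its lowest with mt-Co3 (-0.44), mt-Co1 (-0.43), mt-Atp6 (-0.37), Gm42418 (-0.33) and mt-Co2 (-0.32). The mitochondrial share was 1.17%, 2.53% and 5.77% at the 5th percentile, the median and the 95th, and had a rho of -0.41 with depth. It went with Glp1r (0.40), Peg3 (0.36), Meg3 (0.35), Acly (0.33) and Zbtb20 (0.33), and against Krtcap2 (-0.35), Eif1 (-0.35), Gng5 (-0.33), Rps27a (-0.32) and Btf3 (-0.31). The sum of the nuclear oxidative phosphorylation genes had a rho of 0.36 with depth and -0.57 with the Malat1 percentage. Genes with the most partners at r of at least 0.2, picked after values were seen, were Btf3 (155), Peg3 (154), Nme2 (143), Eif1 (142) and Ddit3 (137).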

How the data were processed

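The authors deposited a matrix of UMI counts for each library, with no normalization. They named Cell Ranger 6.0.2 and mm10, per the submitters' processing notes. Reads of overlapping genes cannot be split here. The members, the gene lists and the rule for naming genes were chosen with earlier results of these data known. The rule names the 20 most abundant genes, the 25 highest dispersion ratios and the 20 strongest pairs. It also names 5 partners at each end for chosen genes, and up to 4 genes per list. From the dispersion ratios it leaves out genes over 10 times higher in another gate of at least 50 barcodes. All gates lay below 4% insulin. The alpha, delta and pp gates needed Gcg of at least 2%, Sst of at least 1% or Ppy of at least 1%, each below the limits of the others. The remaining gates needed at least 10 UMIs of that class's markers. Other choices are said to be made after values were seen.

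The size factor was the UMI total outside Ins1, Ins2, Iapp, Gcg, Sst, Ppy, Pyy and mitochondrial genes. Dispersion was a moment estimate. Correlations used Pearson residuals with variance μ + μ²/100, clipped at the square root of the number of barcodes. Lists counted as co-varying at a median r of at least 0.05. The scripts were tested on simulated data. Python 3.11.15, numpy 2.4.6, scipy 1.17.1 and pandas 2.3.3 were used. With 1 library per condition there is no test and no replicate error, and intervals are exact binomial. Promoter windows are RefSeq's. Some genes that met the naming rule are not reported here.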

Additional observations from a re-analysis of the deposited data

How the results depend on the processing

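No paired analysis was possible because each condition is 1 library and no result comes from a test between samples. Pooled over barcodes, the insulin share of UMIs was 33.9% and moved, by more than its counting interval, to 33.973% with at least 5000 UMIs, 34.259% with a mitochondrial share of at most 5%, 34.942% without barcodes that held 3 or more UMIs of non-endocrine markers and the deepest 5%, and 34.916% with insulin at 20% or more. The Ins1 share of insulin UMIs, 32.1%, was 32.085%, 32.509% and 32.265% under the last 3 of these. In the alternatives chosen after seeing the data, these shares were 34.536% and 32.617% when Spp1 was not counted as a duct marker, and 33.916% and 32.307% without the 103 barcodes rich in Hspa1a and Hspa1b. The removal by markers left out 3912 of 5197 barcodes, or 3601 without Spp1. The duct markers it counted include Krt7 and Spp1. Whether their UMIs came from the beta cells themselves was not tested.

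The count of dispersed genes, 1010, was 558 when barcodes were thinned to 5000 UMIs, 1633 with a mean of at least 0.02 UMIs, where more genes were tested, and between 826 and 1026 otherwise. The count of pairs at r of at least 0.2, 12536, was 22386 with all UMIs as the size factor, 1930 after thinning, and between 10477 and 12950 otherwise. Between 12 and 16 lists co-varied. The median r ranged from 0.18 to 0.62 for heat shock, 0.24 to 0.32 for hypoxia, 0.21 to 0.47 for glycolysis, 0.072 to 0.12 for identity and 0.086 to 0.32 for proliferation. The unfolded protein response and nuclear oxidative phosphorylation lists fell below 0.05 after thinning (0.049 and 0.038), and the immediate early and p53 lists with genes down to a mean of 0.1 (0.045 and 0.041); for p53 also on a log2 scale (0.048). Alternatives were run for the 25 highest named dispersion ratios, the 20 strongest and 5 lowest pairs and the medians of 18 lists. None changed sign, but sizes moved. The r ran from 0.36 to 0.89 for Hsph1 and Hsp90aa1, 0.49 to 0.85 for Hsp90aa1 and Hsp90ab1, and 0.61 to 0.85 for Ins1 and Ins2. It ran from 0.70 to 0.82 for Gapdh and Mif, 0.84 to 0.91 for Mt1 and Mt2, and -0.45 to -0.36 for Peg3 and Mif. Partner correlations and ratios of other named genes were not run. Depth limits the rarer genes: at a median of 13010 UMIs, 5015 genes reached a mean of 0.3.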

Other observations

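Pyy, the gene of peptide YY, was not part of the rule. It had 0 UMIs in 1786 beta barcodes and at least 1% of UMIs in 108, and 148 barcodes (2.85%) with at least 100 UMIs held 81.8% of its UMIs, at a median depth of 23050. In the alpha gate 33.0% of barcodes reached 100 UMIs. In CPM, Pyy stood at 849 in the beta barcodes, 17557 in the alpha gate, 80200 in the delta gate and 153766 in the pp gate.

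Barcodes with at least 200 UMIs of Mt1 and Mt2 numbered 195 (3.75%) and held 26.3% of those UMIs, while 203 barcodes had 0. Their median insulin share was 27.6% and their median depth 20016 UMIs, and they averaged 16.7 UMIs of duct markers, against 7.31 in the other members. No barcode of the alpha, endothelial or macrophage gates reached 200, a cut not scaled to depth. Their median depths were 5675, 5736 and 4913 UMIs. Scaled to depth, Mt1 was higher in another gate, at 5121 CPM against 2238 in the beta barcodes. Barcodes with over 5% mitochondrial UMIs numbered 408 of 5197.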
